A study of Mus musculus with 12 samples.

Results

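Background chromatin reads over the long genes of mouse chromosome 7 were described along the chromosome, in 5-Mb steps from the centromeric end. The 875 members are the chromosome 7 intervals of 20 kb or more with 2 or more blocks (exons), without those of Scnn1b and Scnn1g. No Aqp11 interval met the size. They cover 603 genes and were drawn from 33062 intervals measured in all 6 IgG libraries, of which 2923 lie on chromosome 7. The chromosome was selected on its measured low density in these same libraries, so its level is a description here and carries no test.

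The libraries come from mpkCCD clone 11, a transformed mouse line derived from principal cells of the kidney collecting duct, and a line that is 1 clone. Cells were kept with 0.1 nM dDAVP, a vasopressin analog selective for the V2 receptor, or with vehicle, and were harvested 24 h after serum removal. Chromatin was immunoprecipitated with IgG in experiments 1, 2 and 3 of each group. The 6 Polr2a libraries of the series were not analysed here. The IgG reads hold DNA and no transcripts, so the labelled cell type was not checked against marker genes.

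IgG has no chromatin target of its own, so reads recovered with it sample the sheared DNA that comes down without a specific antibody. Their density over a gene follows how much of that DNA is present, how well it is sheared, amplified and mapped, and its base composition. Mouse chromosome 7 is known for clusters of imprinted genes (expressed from 1 parental copy), including the Peg3, Snrpn and Kcnq1 domains, and for large families of vomeronasal receptor, Nlrp and zinc finger genes.

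Base composition differed widely among the members, and the reads followed it differently in different libraries. For that reason, stretches of the GC-poorest and GC-richest genes among the longest of each bin are shown at the GC content of the gene itself. All lie in introns on the plus strand of mm10 (GRCm38.p6 coordinates), and G and C are in capitals. The Grm5 window is chr7:87859556-87859675 (45 G or C in 120 bases), and the Dlg2 window is chr7:91769742-91769861 (46). The Gsg1l window is chr7:125980411-125980530 (60), and the Sipa1l3 window is chr7:29412726-29412845 (60).
Grm5: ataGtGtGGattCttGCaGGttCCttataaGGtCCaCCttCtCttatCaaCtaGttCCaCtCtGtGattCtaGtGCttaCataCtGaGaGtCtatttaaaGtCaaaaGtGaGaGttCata
Dlg2: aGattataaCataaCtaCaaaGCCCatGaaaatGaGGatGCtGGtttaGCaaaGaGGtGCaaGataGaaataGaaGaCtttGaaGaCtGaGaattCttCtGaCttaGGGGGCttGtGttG
Gsg1l: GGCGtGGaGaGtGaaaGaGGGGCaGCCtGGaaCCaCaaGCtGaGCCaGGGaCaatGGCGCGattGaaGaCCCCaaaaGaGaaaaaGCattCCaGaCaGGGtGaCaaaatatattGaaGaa
Sipa1l3: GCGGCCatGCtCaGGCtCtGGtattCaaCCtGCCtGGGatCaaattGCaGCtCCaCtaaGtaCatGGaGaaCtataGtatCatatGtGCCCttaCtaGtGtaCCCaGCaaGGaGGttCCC
The windows of Grm5 and Dlg2 hold 0 CpG dinucleotides, that of Gsg1l holds 3 and that of Sipa1l3 holds 1.

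The libraries held 10588927 to 19748658 reads over intervals in all, and 295854 to 535432 reads over the members. A read is counted in every interval it overlaps. The median member had 189 to 312 reads in a library, which gives a 95% Poisson interval of about -13.7% to 15.3% at the lowest depth. That interval covers counting error only. Experiments 1 and 2 of a group differed over genes by little more than sampling noise. Their chi-square per degree of freedom was 1.02 with dDAVP (p = 0.0426) and 1.01 with vehicle (p = 0.148), against 5.02 to 89.3 for pairs with experiment 3 of the same group. They were counted as 1 sample, so each group has n = 2, and 6 separate libraries were an alternative. Labels do not say that experiments came from separate cultures, so any p measures only a spread that may be technical.

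Chromosome 7 lay below the usual autosomal density from end to end in 5 of the 6 libraries, and in all 6 once base composition was matched. Relative density is reads per kb and per total reads, divided by the median of autosomal intervals in the same length class (length-matched). A value of 1 is the usual autosomal gene. By experiment, in the order 1 to 3 used throughout, the median over the members was 0.684, 0.679 and 0.755 with dDAVP. With vehicle it was 0.679, 0.672 and 0.646. The highest of these medians, in dDAVP experiment 3, lay below 1. The libraries are of bulk cultures, so a moderately lower density in every cell and a much lower one in some cells cannot be told apart.

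Low density was shared by most individual members. In the 5 libraries other than dDAVP experiment 3, 94.5% to 98.7% of the 875 members were under 1, against 46.7% to 47.0% of the other 13099 autosomal intervals. In dDAVP experiment 3 the share was 63.4%, against 49.1%. Counting members under 1 in every one of the 6 libraries gave 493 (56.3%), and 810 (92.6%) without dDAVP experiment 3. Of the other autosomal intervals 18.1% were under 1 in all 6, and 32.7% without dDAVP experiment 3. No member was at 1 or above in all 6 libraries, against 21.3% of the other intervals.

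The profile along the chromosome varied most in dDAVP experiment 3, less in vehicle experiment 3 and least in the other 4 libraries. A bin level is the median of its members, and 29 bins had at least 5 members and 3 genes. In each library but dDAVP experiment 3, all 29 bins were under 1, and 24 to 27 of them were under 0.8. Bin levels ran from 0.594 to 0.875 in dDAVP experiment 1, and from 0.593 to 0.879 in vehicle experiment 1. In vehicle experiment 3 they ran from 0.518 in bin 4 to 0.974 in bin 3, with a coefficient of variation of 17.4%, against 9.22% to 9.90% in the other 4 libraries. In dDAVP experiment 3 they ran from 0.245 in bin 18 to 1.28 in bin 28, with 22 bins under 1 and a coefficient of variation of 35.1%. Counting bins under 0.8 in all 6 libraries therefore gave 13 of 29, and 24 without dDAVP experiment 3. No bin lay between 0.8 and 1.2 in all 6 libraries.

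Bin levels moved with GC content in both libraries of experiment 3. Over the 29 bins, the level in dDAVP experiment 3 had a Pearson r of 0.92 with the GC content of the bin, and vehicle experiment 3 had r = -0.87. In the other 4 libraries r was -0.59 to -0.46. These are descriptions over neighbouring bins of the same libraries. The GC-poorest quintile of members (175, median 38.8% GC) had a median of 0.358 in dDAVP experiment 3 and 0.836 in vehicle experiment 3. The GC-richest quintile (176, median 51.5% GC) had 1.40 and 0.495. In the other libraries the quintiles ran only from 0.603 to 0.724, lower in the GC-richest quintile than in the GC-poorest.

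**Figure D1:**
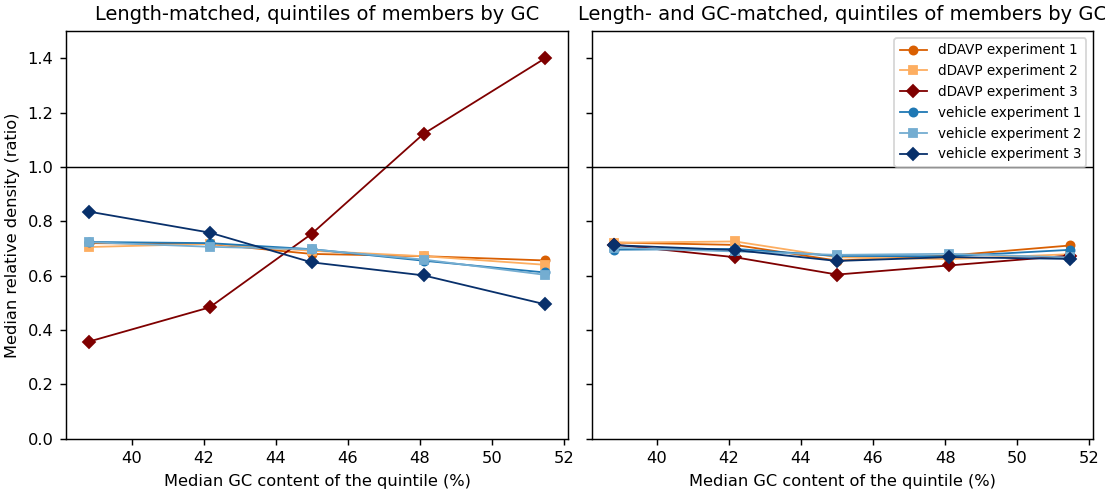
Median relative density (ratio, vertical axis) of the members in quintiles by GC content (median GC in percent, horizontal axis), 1 line per library, matched on length (left) and on length and GC (right). On the left dDAVP experiment 3 climbs from 0.358 to 1.40 and vehicle experiment 3 falls from 0.836 to 0.495, and on the right every point lies between 0.604 and 0.726.

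The printed genes show the same contrast. Grm5, a metabotropic glutamate receptor gene of 551 kb at chr7:87584168-88135063, has 37.1% GC. It had length-matched densities of 0.691, 0.708 and 0.567 with dDAVP, and 0.699, 0.711 and 0.836 with vehicle. Sipa1l3, a gene of 185 kb at chr7:29320378-29505460 with 50.5% GC, had 0.545, 0.590 and 1.59, and 0.540, 0.520 and 0.436. dDAVP experiment 3 gave the lowest value of Grm5 and the highest of Sipa1l3, and vehicle experiment 3 the highest of Grm5 and the lowest of Sipa1l3.

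Matching on GC as well as length brought the levels of the libraries together, but did not remove all relation of the bins to GC. Each member was then set against autosomal intervals of the same length and GC class (GC-matched). The medians of the members became 0.694, 0.684 and 0.651 with dDAVP, and 0.685, 0.683 and 0.675 with vehicle. All 29 bins were under 1 in all 6 libraries, and bin levels ran from 0.554 to 0.882. Of the 29 bins, 25 were under 0.8 in every library. The other bins, 2, 3, 11 and 22, were at or above 0.8 in at least 1 library and at most 0.882. Over the 29 bins, the GC-matched level still had a Pearson r of -0.61 to -0.34 with GC content. Between libraries, r over the bins was 0.37 to 0.53 for pairs with dDAVP experiment 3, and 0.74 to 0.91 for the other pairs. By this measure 784 members (89.6%) were under 1 in every library, and 843 (96.3%) without dDAVP experiment 3, against 3719 (28.4%) of the other autosomal intervals over 6 libraries and 35.3% without dDAVP experiment 3.

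**Figure D2:**
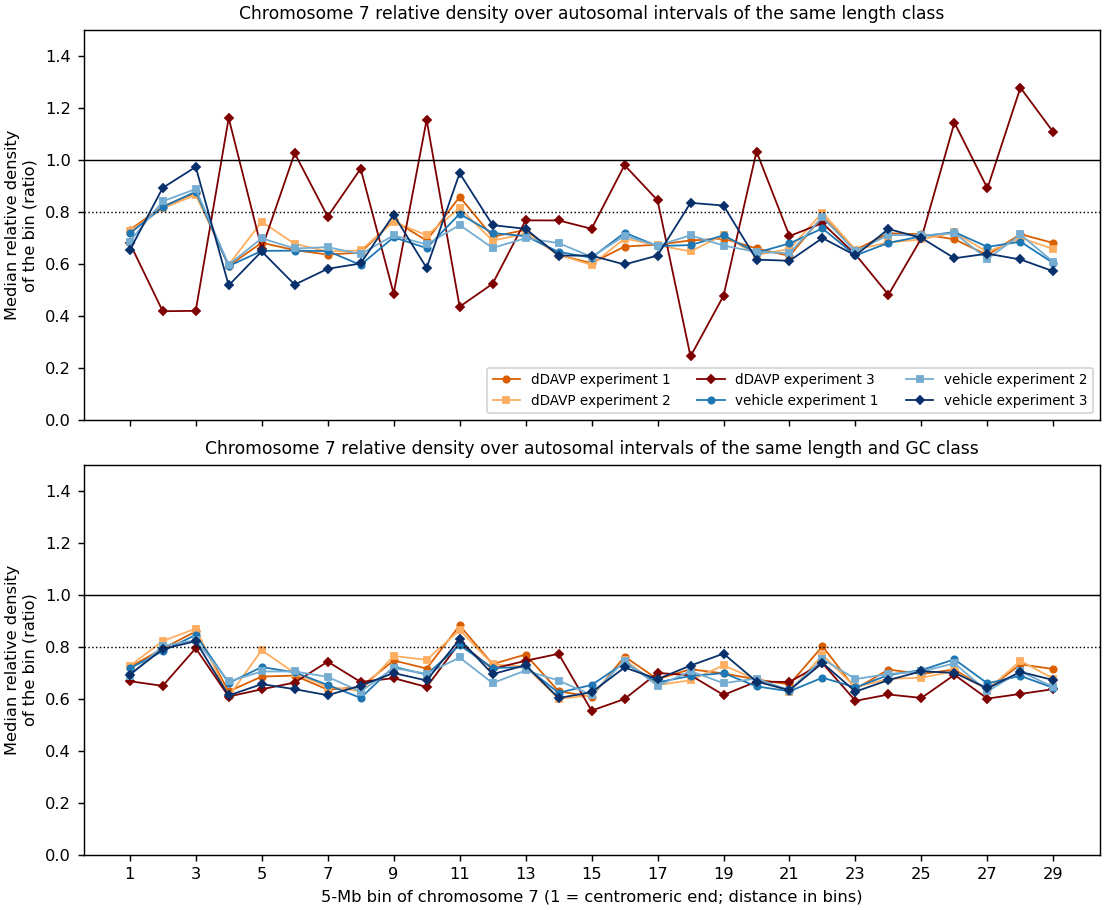
Median relative density (ratio, vertical axis) of the members in 29 bins of 5 Mb (bin 1 at the centromeric end, horizontal axis), 1 line per library, length-matched above and GC-matched below. Above, dDAVP experiment 3 swings between 0.245 and 1.28 while the other libraries stay under 1, and below all 6 libraries stay between 0.554 and 0.882.

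Dividing the chromosome into stretches of about equal length gave like values. GC-matched medians were 0.662 to 0.724 over the 6 libraries in bins 1 to 10 (286 members), 0.671 to 0.689 in bins 11 to 20 (237 members) and 0.637 to 0.690 in bins 21 to 29 (351 members). These ranges overlapped. One further member lies past bin 29 and enters no bin level.

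The largest step between neighbouring GC-matched bins was from bin 3 to bin 4, a difference of -0.20 that was downward in 6 of 6 libraries. Next in size were a rise of 0.14 from bin 10 to bin 11 and a drop from bin 11 to bin 12 (-0.12), each in 6 of 6 libraries. Bin 11 holds 5 genes, and not all of them shared its higher median. Gas2 in that bin had 0.656, 0.683 and 0.717 with dDAVP and 0.688, 0.656 and 0.660 with vehicle. The bin 3 level was 0.859, 0.870 and 0.794 with dDAVP and 0.846, 0.825 and 0.822 with vehicle. The bin 4 level was 0.628, 0.609 and 0.609, and 0.661, 0.667 and 0.613. The bin 3 and bin 4 values did not overlap. The GC content of the bins differed by 10.4 percentage points, and its part in the step was not tested.

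The genes flanking that step are Nlrp5-ps, a pseudogene of the Nlrp family, and Bicra, which encodes a subunit of a BAF chromatin remodelling complex. Nlrp5-ps had GC-matched densities of 0.831, 0.841 and 0.471 with dDAVP and 0.754, 0.80 and 0.745 with vehicle. Bicra had 0.581, 0.552 and 0.574, and 0.521, 0.580 and 0.582. Bicra was the lower in every library but dDAVP experiment 3.

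Length-matched, the largest step was an upward one of 0.12 from bin 27 to bin 28 (5 of 6 libraries), between Insyn2a and Ptpre, a receptor-type protein tyrosine phosphatase gene. Ptpre had 0.684, 0.672 and 1.38 with dDAVP, and 0.621, 0.666 and 0.587 with vehicle. After GC matching the dDAVP experiment 3 value of Ptpre was 0.573.

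Genes of multicopy families were spread over both higher and ordinary bins. Families were assigned by symbol prefix alone, and whether a gene has near-identical copies was not checked. The prefixes include Zfp (20 genes) and Gm (11 genes), the latter a label of predicted genes rather than a family. In bin 2, 14 of 19 genes carry such a prefix, and in bin 3, 6 of 18. Bin 11, also among the highest, holds 0 of 5. Bins 5 and 9 hold 7 of 13 and 11 of 23, at mean GC-matched levels of 0.686 and 0.714. Reads from near-identical copies can be placed on the wrong copy or lost, so densities of genes that have such copies are uncertain.

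Vmn2r genes, which encode pheromone receptors of the vomeronasal organ, had GC-matched medians over 26 genes of 0.884, 0.914 and 0.827 with dDAVP and 0.807, 0.829 and 0.846 with vehicle. Nlrp genes, of the innate immune and oocyte NLR family, had 0.842, 0.846 and 0.587 over 12 genes, and 0.849, 0.832 and 0.838. Zfp genes, which encode zinc finger proteins, had 0.650, 0.634 and 0.610 over 20 genes, and 0.661, 0.637 and 0.657. The Vmn2r median lay above the Zfp median in every library. Over all 78 genes of multicopy families, 41 (52.6%) were above the median of the 603 member genes in every library, against 135 (22.4%) of the 603. The 1 member at 1 or above in all 6 libraries after GC matching was Vmn2r56, with 1.16, 1.11 and 1.22 with dDAVP and 1.00, 1.00 and 1.096 with vehicle. Vmn2r56 was picked for mention after its values were seen.

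The longest member of each bin gives the best-counted value at each position. Dlg2, a postsynaptic scaffold gene, is the longest of all at 1358 kb (chr7:91090786-92449246, bin 19). It held 9008, 8443 and 3190 reads with dDAVP and 7483, 7054 and 15238 with vehicle. Its GC-matched density was 0.715, 0.702 and 0.615 with dDAVP (0.661 ± 0.066, SD, n = 2), and 0.693, 0.698 and 0.722 with vehicle (0.709 ± 0.019, SD, n = 2). All 6 values lay under 1, and the dDAVP and vehicle values overlapped.

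Agbl1, a cytosolic carboxypeptidase gene of 895 kb in bin 16, had 0.699, 0.710 and 0.561, and 0.700, 0.695 and 0.675. Nell1, a secreted protein gene of 888 kb in bin 11, had 0.867, 0.841 and 0.628, and 0.816, 0.852 and 0.812. Tenm4, a teneurin adhesion gene of 698 kb in bin 20, had 0.721, 0.724 and 0.545, and 0.727, 0.716 and 0.693. dDAVP experiment 3 gave the lowest of the 6 GC-matched values for each of these genes.

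Gabrg3, a GABA-A receptor subunit gene of 663 kb in bin 12, had 0.844, 0.802 and 0.666, and 0.785, 0.806 and 0.801. Nav2, a neuron navigator gene of 651 kb in bin 10, had 0.678, 0.668 and 0.537, and 0.661, 0.646 and 0.701. Sox6, a transcription factor gene of 568 kb in bin 24, had 0.542, 0.554 and 0.662, and 0.540, 0.525 and 0.607. Sox6 lay lower than Gabrg3 in every library, although dDAVP experiment 3 brought them close.

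Arhgap35, a GTPase-activating protein gene of 121 kb in bin 4, had 0.535, 0.562 and 0.454, and 0.615, 0.612 and 0.518. Slco3a1, an organic anion transporter gene of 279 kb in bin 15, had 0.504, 0.509 and 0.332, and 0.571, 0.553 and 0.535. Dock1, a guanine nucleotide exchange factor gene of 503 kb in bin 27, had 0.568, 0.593 and 0.497, and 0.613, 0.625 and 0.604. Both treatments gave values far under 1 for these genes.

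Among the remaining longest members, Usp29, an imprinted ubiquitin protease gene in bin 2, had 0.793, 0.767 and 0.541, and 0.771, 0.792 and 0.727. Mgmt, the DNA repair methyltransferase gene in bin 28, had 0.761, 0.776 and 0.619, and 0.751, 0.685 and 0.717. Vmn2r60 in bin 9 was the one with a value above 1, at 0.980, 0.967 and 1.53 with dDAVP and 0.903, 0.833 and 0.876 with vehicle. Its highest value came from dDAVP experiment 3, at 39.2% GC. The intervals named Mir1970 and Mir3470b are short blocks placed far apart that span other genes, so they do not measure those microRNA genes alone.

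**Figure D3:**
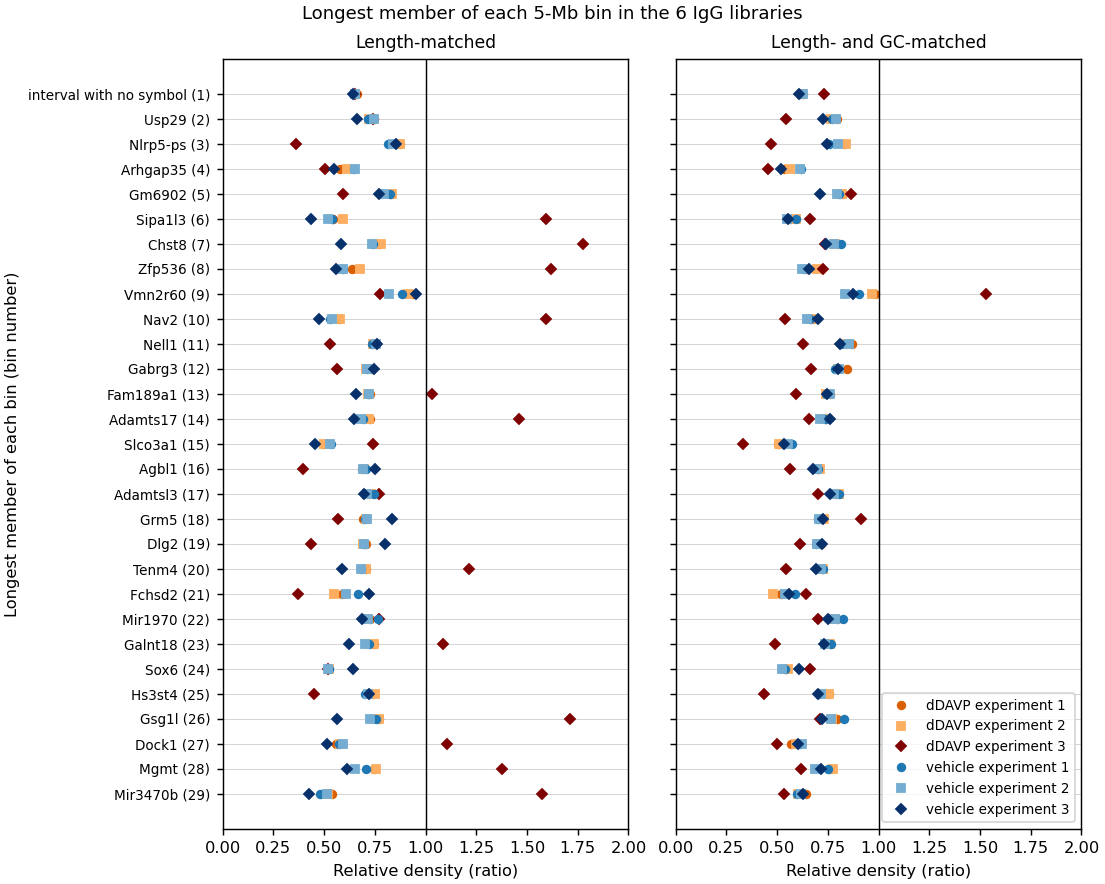
Relative density (ratio, horizontal axis) of the longest member of each of the 29 bins (vertical axis, bin number in brackets), 1 symbol per library, length-matched on the left and GC-matched on the right. On the left dDAVP experiment 3 stands apart, at 1.59 for Sipa1l3 and 0.359 for Nlrp5-ps, and on the right 1 symbol exceeds 1, that of Vmn2r60 at 1.53.

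Among genes outside the multicopy families with at least 40 reads in every library, the highest length-matched means included Itgad, Otog, Pde2a and Slco2b1. These encode an integrin alpha chain, an inner ear glycoprotein, a cyclic nucleotide phosphodiesterase and an organic anion transporter. Pde2a had length-matched values of 0.757, 0.763 and 2.07 with dDAVP and 0.706, 0.655 and 0.538 with vehicle. Its GC-matched values were 0.803, 0.824 and 0.809, and 0.782, 0.723 and 0.741. Otog, with 50.7% GC, likewise had 2.07 in dDAVP experiment 3 and 0.814 there after GC matching. An interval with no symbol completes the highest 5.

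The lowest length-matched means belonged to Muc2, Ube3a, Prc1, Rab6a and Abhd17c. Muc2, the gel-forming intestinal mucin gene at chr7:141690340-141754694, had length-matched values of 0.341, 0.308 and 0.754 with dDAVP and 0.283, 0.313 and 0.215 with vehicle. An assembly gap fills 62.5% of its interval, and over the remaining bases its GC-matched values were 0.975, 0.873 and 0.789, and 0.840, 0.924 and 0.811. Without the gap Muc2 was thus above the usual member rather than the lowest. The next largest gap share was 20.2%, in Jakmip3, whose mean GC-matched density was 0.584 with the gap and 0.732 without it.

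Ube3a, the imprinted ubiquitin ligase gene of the Angelman region (chr7:59228752-59306727, 33.9% GC), held 329, 318 and 67 reads with dDAVP and 276, 255 and 573 with vehicle. Its GC-matched values were 0.588, 0.588 and 0.304, and 0.552, 0.533 and 0.586. Prc1, which encodes a midzone microtubule bundler needed for cytokinesis, had 0.527, 0.510 and 0.301, and 0.437, 0.414 and 0.474. Rab6a, a Golgi trafficking GTPase gene, had 0.513, 0.50 and 0.614, and 0.533, 0.438 and 0.438. Abhd17c, a depalmitoylase gene, had 0.513, 0.533 and 0.348, and 0.511, 0.429 and 0.507. None of these values has an assembly gap behind it. Length-matched, Ube3a and Rab6a had their lowest values in dDAVP experiment 3, at 0.117 and 0.208. Their GC-matched means of 0.505 and 0.511 lay above that of Slco3a1 (0.484), so their rank depended on the matching.

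Genes of growth, cell division and genome maintenance had lower medians than the member genes as a whole, a description with no test. Of the list, 24 genes are members, spread over bins 3 to 29. Their GC-matched medians were 0.589, 0.592 and 0.520 with dDAVP and 0.598, 0.592 and 0.561 with vehicle, against 0.697, 0.691 and 0.651, and 0.688, 0.689 and 0.681, over all 603 member genes. Of the 24, 13 (54.2%) were below the median of the member genes in every library and 1 was above it in every library, against 131 (21.7%) and 135 (22.4%) of the 603.

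Lig1, which encodes DNA ligase I, had GC-matched values of 0.600, 0.615 and 0.477 with dDAVP and 0.815, 0.720 and 0.507 with vehicle. Xrcc1, a scaffold of single-strand break repair, had 0.569, 0.652 and 0.605, and 0.608, 0.704 and 0.645. Axl, a receptor tyrosine kinase gene, had 0.741, 0.754 and 0.742, and 0.983, 1.01 and 0.636. Tsg101, an ESCRT sorting gene, had 0.646, 0.625 and 0.397, and 0.581, 0.703 and 0.573. Lig1 and Axl were higher in vehicle experiments 1 and 2 than elsewhere, and vehicle experiment 3 did not share this.

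Several growth genes were low at close values in all 6 libraries, and were picked for mention after their values were seen. Igf1r, the IGF1 receptor gene of 281 kb, had 0.508, 0.497 and 0.529, and 0.524, 0.517 and 0.485. Fgfr2, an FGF receptor gene, had 0.460, 0.497 and 0.448, and 0.429, 0.424 and 0.463. Tead1, a DNA-binding partner of YAP, had 0.456, 0.491 and 0.404, and 0.483, 0.471 and 0.474. All of these values were below the first quartile of the members in their library.

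By median, the other lists lay closer to the member genes as a whole. The 21 imprinted genes had GC-matched medians of 0.733, 0.682 and 0.606 with dDAVP and 0.689, 0.671 and 0.690 with vehicle, and 19 were under 1 in every library, beside 541 of the 603 member genes. Zim1 and Peg3, zinc finger genes of the Peg3 domain, had dDAVP values of 0.770, 0.820 and 0.827, and 0.925, 0.975 and 0.672. Their vehicle values were 0.915, 1.01 and 0.872, and 0.798, 0.952 and 0.942. Usp29 and Zim3 of the same domain were lower in dDAVP experiment 3, at 0.541 and 0.501. In the Kcnq1 domain at the far end, Kcnq1, a voltage-gated potassium channel gene, had 0.526, 0.519 and 0.571, and 0.544, 0.561 and 0.518.

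The 22 genes of renal transport and vasopressin-cAMP signalling had medians of 0.728, 0.711 and 0.668, and 0.691, 0.685 and 0.669, with 21 under 1 in every library. Akt2, a kinase of insulin signalling, had 0.717, 0.731 and 0.585, and 0.770, 0.764 and 0.727. Trpm4, a calcium-activated cation channel gene, had 0.532, 0.569 and 0.580, and 0.614, 0.645 and 0.595. The dDAVP and vehicle values of Akt2 overlapped. For Trpm4 the order of the treatments depended on the matching. Length-matched, it had 0.49, 0.53 and 1.07 with dDAVP and 0.56, 0.58 and 0.48 with vehicle.

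The list named neuronal is a loose one, and also holds genes described above by other roles, such as Otog, Slco3a1 and Agbl1. Its 37 member genes were all under 1 in every library, a count to be read beside the 541 of 603. Their medians were 0.733, 0.732 and 0.615, and 0.727, 0.716 and 0.722. Grik5, a kainate receptor subunit gene, had 0.743, 0.725 and 0.761, and 0.736, 0.812 and 0.731. Shank1, a postsynaptic scaffold gene, had 0.627, 0.622 and 0.571, and 0.723, 0.650 and 0.625. Of the 37, 3 (8.11%) were below the member median in every library and 11 (29.7%) above it, against 131 (21.7%) and 135 (22.4%) of the 603.

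**Figure D4:**
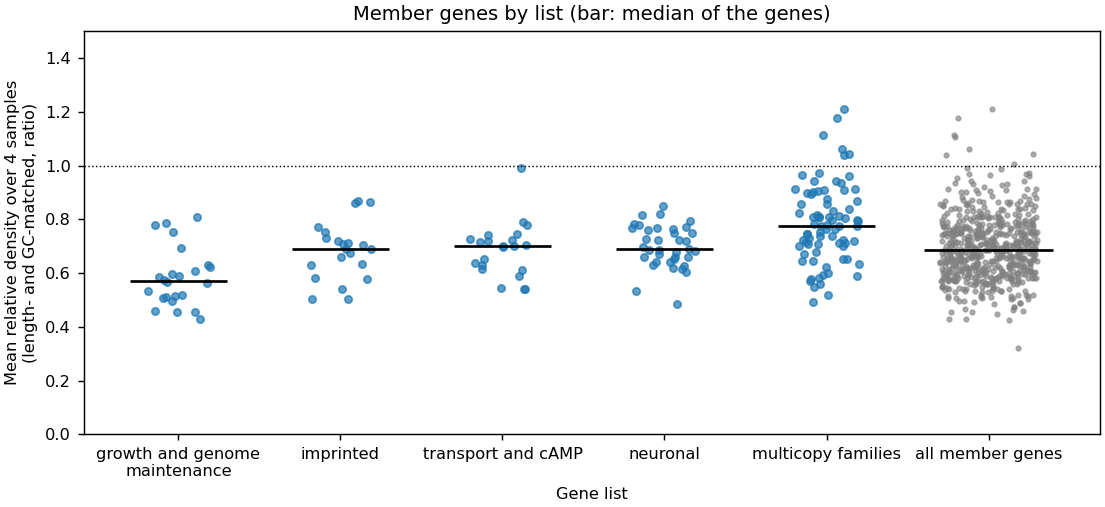
Mean GC-matched relative density over 4 samples (ratio, vertical axis) of each member gene by list, with a bar at the median of the genes. The 24 growth and genome maintenance genes have a median of 0.570, the 78 genes of multicopy families 0.777 and all 603 member genes 0.685.

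Differences between member genes were larger than counting error and recurred between libraries. On the log2 scale the GC-matched densities of the 603 genes had an SD of 0.26 to 0.27 in 5 libraries and 0.42 in dDAVP experiment 3, against 0.09 to 0.11 from counting alone. Over those genes, dDAVP experiment 1 and vehicle experiment 3 had a Pearson r of 0.82. Pairs with dDAVP experiment 3 had r of 0.37 to 0.47. These are correlations across genes, which are not independent replicates and share a genome and a mapping.

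Chromosome 7 was not alone in lying low throughout. By GC-matched bins under 0.8 in every library, chromosome 4 had 29 of 30 and chromosome 18 had 15 of 18, beside 25 of 29 on chromosome 7. Chromosome 13 had 7 of 24 with 12 bins between 0.8 and 1.2, and chromosome 9 had 5 of 25 with 17 between these limits. The bins of chromosome 13 thus divided between low and usual values, while no bin of chromosome 7 lay between these limits in every library. Bins 3 and 11 of chromosome 7 missed them only in dDAVP experiment 3 (0.794) and vehicle experiment 2 (0.759), respectively. The chromosomes were set side by side without a test.

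**Figure D5:**
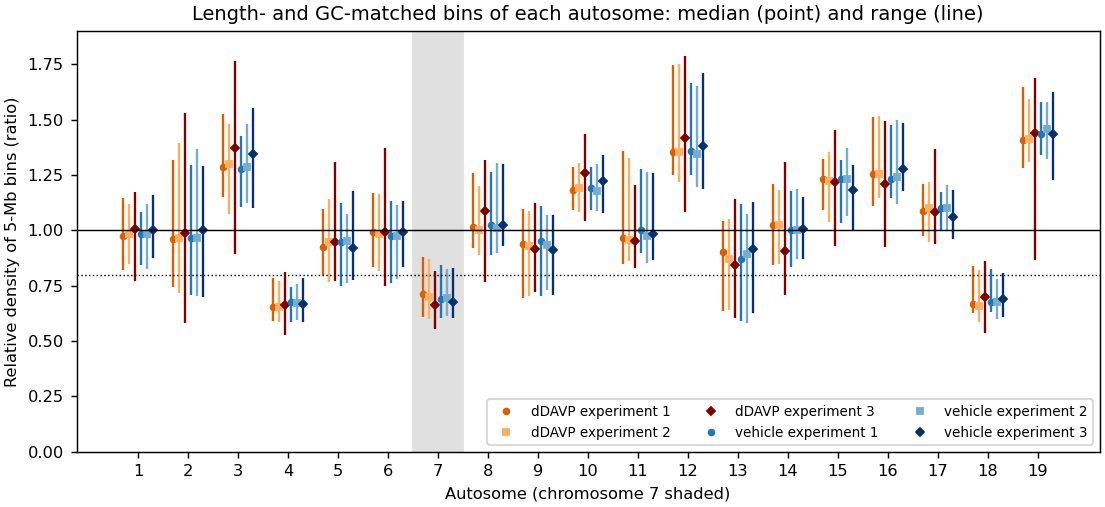
GC-matched relative density (ratio, vertical axis) of the 5-Mb bins of each of the 19 autosomes (horizontal axis), with the median as a point and the lowest to highest bin as a line, by library. The lines of chromosome 7 lie between 0.554 and 0.882, and those of chromosomes 4 and 18 are similarly placed.

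Other ways of dividing the members gave little difference. The 428 members on the plus strand had GC-matched medians of 0.634 to 0.694 over the libraries. Length quintiles gave 0.639 to 0.739. The 73 members of 20 to 22 kb, just inside the size limit, had length-matched medians of 0.670 to 0.715, and the 79 intervals of 18 to 20 kb just outside had 0.660 to 0.828. The 0.828 came from dDAVP experiment 3, and the rest were at or under 0.706.

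dDAVP and vehicle were compared next, a contrast the choice of members did not use. The length-matched median of the chromosome was 0.718 ± 0.052 with dDAVP and 0.661 ± 0.020 with vehicle (SD, n = 2), a difference of 0.057. The two-sided exact permutation test gave p = 0.333, the smallest p that n = 2 a group allows. GC-matched, the difference was -0.0099 (exact permutation p = 1). Without dDAVP experiment 3 the GC-matched difference was 0.0092. The sign of the difference therefore depended on the matching and on 1 library.

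No member was called different between the treatments. Of the 875 members 0 passed an adjusted p of 0.05 in edgeR's quasi-likelihood test, beside 0 of 30912 intervals in all (percent called 0%). At an unadjusted p under 0.05 edgeR had 3 members (0.343%) and 236 intervals (0.763%). DESeq2 had 9 members (1.03%) and 1117 intervals (3.61%), again with 0 called. The members' log2 ratios of dDAVP over vehicle had a median of -0.05, against 0.01 over all intervals, with 421 above 0 and 454 below.

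Genes were ranked by p at their longest member only. Lmo1, a LIM-domain transcription cofactor gene at chr7:109138572-109170308, had the smallest p among genes with a ratio above 0. It held 214, 231 and 448 reads with dDAVP and 125, 127 and 189 with vehicle. Its log2 ratio was 1.03 ± 0.39 (SE), with an adjusted p of 0.619 in edgeR. Its GC-matched densities were 0.931, 1.04 and 0.877 with dDAVP and 0.667, 0.726 and 0.682 with vehicle. Lmo1 was named for its p in this same contrast, so these values are no separate evidence of a difference. With a GC offset in the edgeR model the log2 ratio was 0.32 (adjusted p = 0.970), and without dDAVP experiment 3 it was 0.63 (adjusted p = 1.00). The other intervals at an unadjusted p under 0.05 were both of Lsp1, a leukocyte cytoskeletal gene, and neither is its longest member.

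Kash5, a meiotic nuclear envelope gene, and Pou2f2, a POU-domain transcription factor gene, had log2 ratios of 1.23 ± 0.51 and 1.14 ± 0.49 (SE). With the GC offset these were 0.18 and 0.27. On the other side, A330076H08Rik, Fchsd2 and Ccdc81 had -0.80 ± 0.43, -0.80 ± 0.46 and -0.73 ± 0.43 (SE). With the GC offset they were 0.15, 0.02 and -0.23. All 5 had an adjusted p of 0.619 in edgeR. Kash5 and Pou2f2 have 53.8% and 51.6% GC, and the 3 genes below 0 have 37.7% to 41.6%.

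By position, too, no bin was called. Reads were summed per 5-Mb bin over 1 interval per gene, and 0 of 30 chromosome 7 bins passed an adjusted p of 0.05 in edgeR, beside 0 of 538 bins in all (0%). At an unadjusted p under 0.05 edgeR had 0 bins in all, while DESeq2 had 48, of which 6 on chromosome 7, with 0 called. The log2 ratios of the chromosome 7 bins ran from -0.43 to 1.46, with 23 above 0. The bin at 1.46 holds 1 gene. Their median was 0.31, against -0.03 over all bins. With the GC offset 10 of the 30 were above 0 and the median was -0.02, against -0.0024 over all bins.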

How the data were processed

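Chromatin of mpkCCD clone 11 cells was immunoprecipitated with IgG in 6 libraries, 3 with dDAVP and 3 with vehicle. BWA mapped the reads to mm10, per the labels' protocols, and the submitters' processing notes also name SAMtools and bedtools. Versions and any duplicate or mapping quality filter are not stated. The deposited values are a count of reads overlapping each transcript interval from start to end, introns included, and the fraction of its bases with at least 1 read, per the file headers, with no normalization by the authors.

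Of the intervals, 33062 were common to all libraries, 32763 had a symbol and 32980 had a GC content from GRCm38.p6, whose chromosome coordinates are those of mm10. Relative density used 10 length classes, or 5 length by 10 GC classes, of 13978 autosomal intervals of 20 kb or more with 2 or more blocks. A bin was called low under 0.8 in every library. Experiments 1 and 2 of a group were summed for tests and averaged for densities. All intervals and all bins were tested with edgeR 4.0.16 (TMM, filterByExpr, quasi-likelihood test, Benjamini-Hochberg at 0.05) in R 4.3.3, and tested on simulated data. DESeq2 1.42.0 was the other tool. Densities used Python 3.11.15, numpy 2.4.6, pandas 2.3.3 and scipy 1.17.1.

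Named genes are the longest of each bin, the 5 highest and 5 lowest of length-matched mean density, the first genes by position in each list (1 is not reported here), the 3 smallest p in each direction, and those beside the largest step. The members, lists and tests were chosen with earlier results of these data known. Alternatives covered the reference class, size limit, 1 interval per gene, multicopy families, the covered fraction, bin size and margin, each library left out, the tool, normalization, low-count filter, 6 separate libraries, a replicate block and a GC offset. GC matching or the GC offset without dDAVP experiment 3, the GC offset with 6 libraries, and gap-free lengths were added after seeing the data.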

Additional observations from a re-analysis of the deposited data

How the results depend on the processing

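The median relative density of chromosome 7, 0.690 over the 4 samples, moved by more than its spread between samples (0.046) with 1 alternative, the covered fraction in place of reads per kb (0.746). Leaving out each library gave 0.671 to 0.697. The count of bins under 0.8 in every library, 13 of 29, was 25 with GC matching, with or without dDAVP experiment 3, 7 of 15 at a size limit of 100 kb and 5 with the covered fraction. It was 20 of 51 with 2.5-Mb bins, 8 of 15 with 10-Mb bins and 6 at a margin of 0.75. Leaving out each library gave 13 to 24, the last without dDAVP experiment 3. The dDAVP minus vehicle difference reversed to -0.0099 with GC matching. It was 0.0404 with 6 separate libraries (exact permutation p = 0.1, the smallest possible) and 0.0574 with the replicate block (exact permutation p = 0.5). Leaving out each library gave 0.0210 to 0.0591. Counts of called intervals were 0 in every alternative, the replicate block included, except for the GC offset without dDAVP experiment 3. That fit called 2 in edgeR, both of 2700054A10Rik on chromosome 17, so neither is a member. Counts of called bins were 0 in every alternative. The log2 ratio of A330076H08Rik reversed to 0.145 with the GC offset, 0.138 with that offset and the replicate block, and 0.0087 with that offset and 6 separate libraries. That of Fchsd2 reversed to 0.017 with the GC offset and 0.014 with the offset and the block. Same-numbered experiments of the 2 groups deviated oppositely from their group means over the members (r = -0.45, -0.50 and -0.67). dDAVP experiment 1 with vehicle experiment 2 also had r = -0.50. Experiments 1 and 2 of a group were nearly alike, so these r mostly restate the contrast between the libraries of experiment 3. They cannot decide whether the numbers pair samples, and the main fits used no pairing. Total counts as library size moved the median log2 ratio of all intervals to 0.24. A median of 189 to 312 reads limits what can be said of a single member, and n = 2 a group limits the treatment contrast.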
